A study of Mus musculus with 6 samples.

Results

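The genes described here encode the ligands BMP2 and BMP4, the receptors BMPR1A, BMPR2, ACVR1 and ACVRL1, and the antagonists GREM1, NOG, FST and BAMBI of the bone morphogenetic protein (BMP) pathway. They were taken by name, as every probe that the array annotation assigns to one of these 10 genes, which gave 15 of 45281 probes. They were measured in PA6 cells, a murine stromal line that serves as feeder layer for ES cells. PA6 monolayers of all groups were grown to confluence and then kept for 3 h in serum-free medium, either free of growth factors (-GFs) or supplemented with recombinant FGF2 at 20 ng/ml or recombinant BMP4 at 10 ng/ml. Each of the 3 groups comprised 2 replicates, and each replicate was hybridized to its own Illumina MouseWG-6 v2.0 BeadChip array, on which the mean brightness of the beads of a probe reports the abundance of its transcript. According to the labels, a biological replicate consisted of an untreated, an FGF2-treated and a BMP4-treated well, so that arrays with the same replicate number belong together. The cells are a single line cultured without ES cells, and the spread between 2 replicates is the only error available.

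BMPs are secreted dimers of the TGFβ superfamily. They bring together type I receptors (BMPR1A, ACVR1 and ACVRL1 among them) and type II receptors such as BMPR2, and the type I kinase phosphorylates SMAD1, SMAD5 and SMAD9, which enter the nucleus with SMAD4 and switch on targets such as the ID genes. Noggin (NOG) and gremlin 1 (GREM1) bind BMPs outside the cell and keep them from the receptors, follistatin (FST) sequesters activins and, with lower affinity, some BMPs, and BAMBI is a membrane protein that resembles a type I receptor but lacks its kinase. Stromal cells both produce and receive these signals, and FGF signaling is known to crosstalk with them.

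The median deposited intensity lay between 153.4 and 168.1 on the 6 arrays, and between 15509 and 16459 probes were detected, that is, had a detection p-value under 0.05 against the negative control beads. All 10 stromal markers (such as COL1A1, VIM and CXCL12) were detected on every array, and none of them passed the test between the groups without the replicate block. With the block, 1 of them rose and 2 fell with FGF2 relative to -GFs, in a fit in which 37.7% of all genes passed. NANOG and SOX2, CDH5 and PECAM1, PTPRC, and EPCAM, which define ES, endothelial, blood and epithelial cells, were detected on no array, while POU5F1, TEK and CDH1 were detected on all 6. After detection filtering (both arrays of at least 1 group) and selection of the probe with the largest mean per gene, 5 of the 10 BMP pathway genes (BMP4, BMPR1A, ACVR1, ACVRL1 and FST) entered the test among 11872 genes. BMP2, NOG and BAMBI were detected on no array, and GREM1 and BMPR2 each on 2 arrays that were not of the same group.

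**Figure D1:**
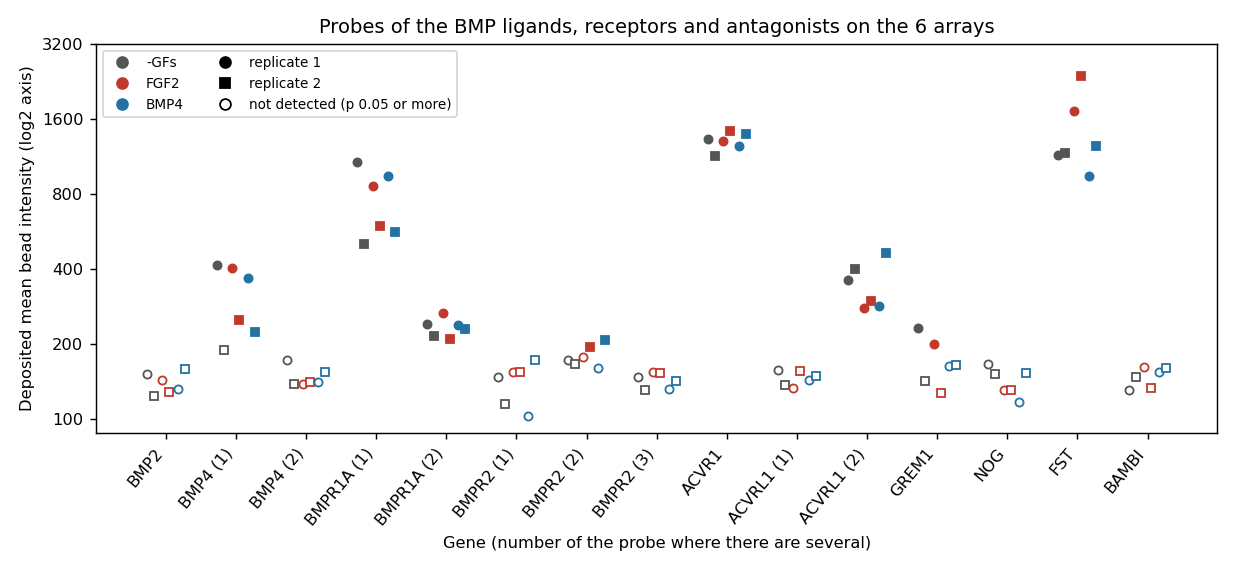
Deposited mean bead intensity (log2 axis, arbitrary units) of all 15 probes of the 10 genes. Each point is 1 of the 6 arrays, colour gives the group, shape the replicate number, and open symbols mark probes not detected on that array (detection p-value of 0.05 or more). The FST probe lies above its -GFs and BMP4 values on both FGF2 arrays, while the more intense probes of BMP4 and BMPR1A separate by replicate number in every group.

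The antagonist FST was the gene of the set whose expression rose upon FGF2 stimulation. Its probe gave deposited intensities of 1142.3 and 1167.5 in -GFs medium, 1729.8 and 2384.4 with FGF2, and 941.2 and 1246.5 with BMP4. Both FGF2 arrays exceeded all 4 others, whereas the BMP4-treated arrays enclosed the -GFs values. On the normalized log2 scale, FST reached 10.11 ± 0.22 in -GFs medium, 11.02 ± 0.37 with FGF2 and 10.12 ± 0.19 with BMP4 (SD, n = 2 each). The difference between FGF2 and -GFs was 0.91 on the log2 scale (SE 0.23, 95% interval 0.37 to 1.44), which is 1.88-fold, with a limma adjusted p of 0.0656. It was 0.80 within replicate 1 and 1.01 within replicate 2. Between FGF2 and BMP4 the difference was 0.90 (SE 0.23, adjusted p = 0.0751), with 0.78 and 1.03 within the replicates. As these are bulk RNA samples, a change in the number of cells of a type and a change in RNA per cell cannot be told apart.

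FST was the 1 member of the 5 tested that passed an adjusted p of 0.1 in the comparison of FGF2 with -GFs, where 11.8% of all genes tested passed (6.03% with a higher and 5.78% with a lower level). For FGF2 against BMP4, again 1 of 5 passed against a background of 9.06% (4.84% higher and 4.22% lower with FGF2). None of the 5 exceeded the additional limit of an absolute log2 fold change over 1, which 3.53% of all genes passed for FGF2 against -GFs and 3.07% for FGF2 against BMP4. With the replicate number as a block, the adjusted p of FST was 9.55e-05 against -GFs and 0.000119 against BMP4, with backgrounds of 37.7% and 34.1%. Whether FST passed depended on single arrays, since the adjusted p against -GFs was 0.187 without -GFs replicate 1, 0.114 without -GFs replicate 2, 0.132 without FGF2 replicate 1 and 0.329 without FGF2 replicate 2. It also missed the limit after neqc background correction (difference of 1.0, adjusted p = 0.105).

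**Figure D2:**
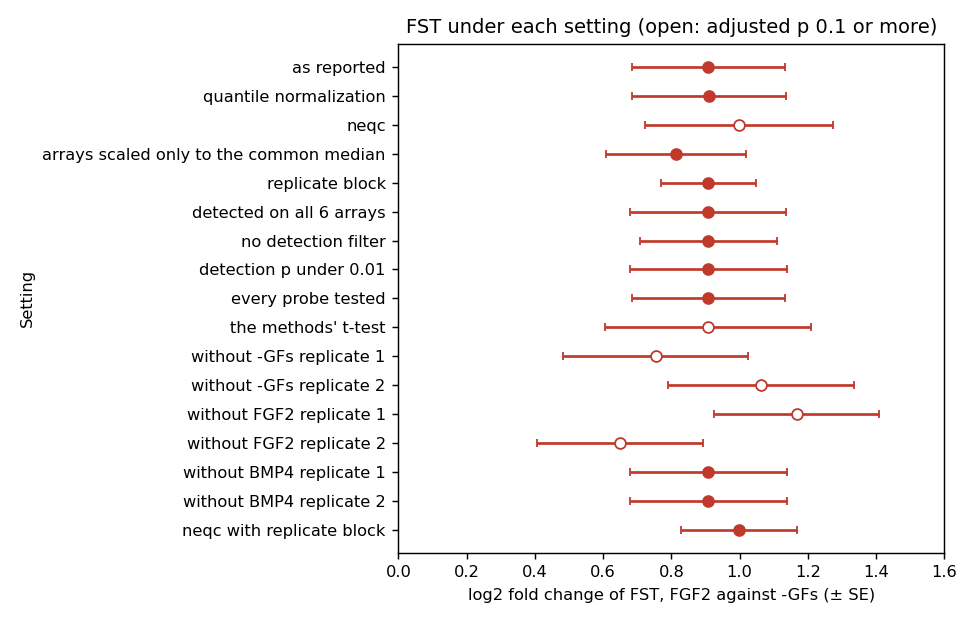
Log2 fold change of FST for FGF2 against -GFs (points, ± SE) as reported and under each of 16 other settings of normalization, filtering, model or array selection. Filled points passed an adjusted p of 0.1 and open points did not. Every estimate lies above 0, and 10 of the 16 other settings kept the adjusted p under 0.1.

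The other antagonists were close to the negative controls. The GREM1 probe gave 232.2 and 142.2 in -GFs medium, 199.9 and 127.4 with FGF2, and 162.4 and 164.5 with BMP4. It was detected on replicate 1 of -GFs and of FGF2 and not on the remaining 4 arrays, so no group had a level in both replicates and no test was made. NOG ranged from 116.5 to 166.3 and the pseudoreceptor BAMBI from 130.2 to 162.1, below the intensity of 180.1 to 200.9 at which the dimmest detected probe of each array lay. For these probes, the level was not detectable on these arrays, and no fold change was computed.

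Of the ligands, the BMP4 gene was measured and BMP2 was not. The detected probe of the BMP4 gene gave 414.3 and 189.5 in -GFs medium, 404.2 and 248.7 with FGF2, and 366.6 and 222.2 with BMP4, so that in each group the replicate 1 array was the higher and the groups overlapped. The -GFs replicate 2 value was not detected, and the gene entered the test through the FGF2 and BMP4 groups. Normalized log2 levels were 8.05 ± 0.62 in -GFs medium, 8.33 ± 0.47 with FGF2 and 8.17 ± 0.58 with BMP4 (SD, n = 2 each). The difference was 0.28 with FGF2 (95% interval -0.66 to 1.22, adjusted p = 0.721) and 0.12 with BMP4 (95% interval -0.82 to 1.06, adjusted p = 0.999). Within replicates 1 and 2 it was 0.17 and 0.38 with FGF2, and 0.09 and 0.14 with BMP4. The limma adjusted p with the replicate block was 0.141 for FGF2 (95% interval -0.01 to 0.57) and 0.919 for BMP4. The other probe of the BMP4 gene (138 to 171.7) and the BMP2 probe (123.5 to 158.8) were detected on no array.

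Among the type I receptors, ACVR1 gave 1325.4 and 1136.4 in -GFs medium, 1303.2 and 1429.4 with FGF2, and 1251.6 and 1395 with BMP4. These ranges overlapped before normalization. After it, the log2 levels were 10.18 and 10.23 in -GFs medium, 10.33 and 10.54 with FGF2, and 10.41 on both BMP4 arrays, with both treated groups above -GFs. The differences of 0.24 with FGF2 (SE 0.15, 95% interval -0.12 to 0.59, adjusted p = 0.394) and 0.20 with BMP4 (SE 0.15, 95% interval -0.15 to 0.56, adjusted p = 0.999) did not pass the test. Within replicates 1 and 2 they were 0.16 and 0.32 with FGF2, and 0.23 and 0.18 with BMP4. The limma adjusted p with the replicate block was 0.216 for FGF2 and 0.836 for BMP4.

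ACVRL1, the type I receptor known from endothelial cells as ALK1, gave 360 and 400.7 in -GFs medium, 278.8 and 297.5 with FGF2, and 282.7 and 463.7 with BMP4. Both FGF2 arrays lay below both -GFs arrays, and the BMP4 arrays lay on either side of both -GFs arrays. The log2 difference between FGF2 and -GFs was -0.31 (SE 0.25, 95% interval -0.91 to 0.29, adjusted p = 0.520, and 0.124 with the replicate block), and that between BMP4 and -GFs was 0.01 (SE 0.25, adjusted p = 0.999). The endothelial markers TEK and KDR had a summed normalized level of 408 to 492 on the -GFs and FGF2 arrays and of 451 and 619 on the BMP4 arrays, while CDH5, PECAM1 and TIE1 were detected on no array. The other ACVRL1 probe lay between 133.2 and 157.5 and was not detected.

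The BMPR1A probe with the larger mean gave 1070 and 502 in -GFs medium, 858.7 and 595.3 with FGF2, and 943.3 and 561.2 with BMP4. As for the BMP4 gene, the replicates of a group stood further apart than the groups did. The log2 difference was 0.06 with FGF2 (95% interval -0.82 to 0.93, adjusted p = 0.946) and 0.09 with BMP4 (95% interval -0.79 to 0.97, adjusted p = 0.999). Within replicates 1 and 2 it was -0.12 and 0.23 with FGF2, and 0.12 and 0.06 with BMP4. The limma adjusted p with the replicate block was 0.808 for FGF2 and 0.944 for BMP4. The type II receptor BMPR2 had 3 probes, of which 1 was detected, and only on FGF2 replicate 2 (195) and BMP4 replicate 2 (207.1), while it gave 176.7 on FGF2 replicate 1, 160.1 on BMP4 replicate 1, and 172.9 and 166.7 in -GFs medium, so that the groups overlapped. BMPR2 was therefore not tested.

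**Figure D3:**
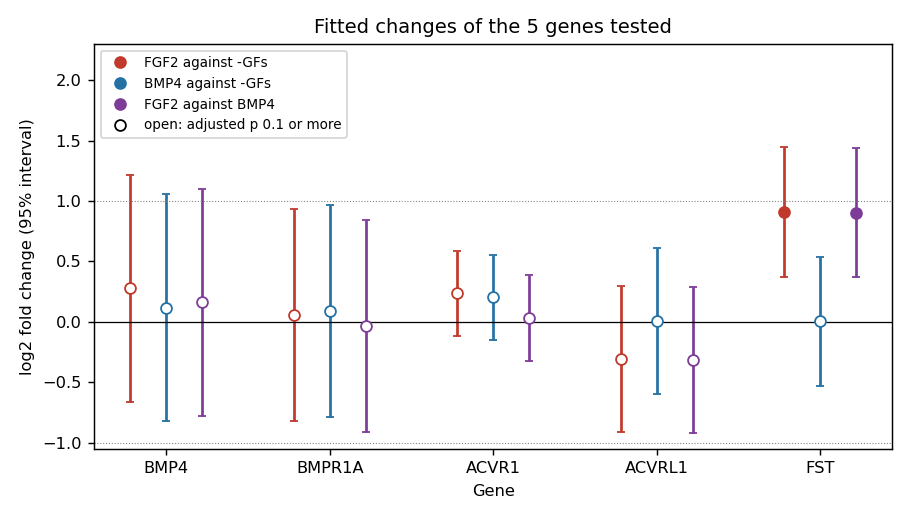
Fitted log2 fold changes of the 5 tested genes in the 3 comparisons, each growth factor with -GFs and FGF2 with BMP4 (limma, bars are 95% intervals). Filled points passed an adjusted p of 0.1, and dotted lines mark an absolute log2 fold change of 1. FST with FGF2 is the pair of filled points near 0.9, while the intervals of the BMP4 gene and BMPR1A lie within -0.91 to 1.22 and include 0 in all 3 comparisons.

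With BMP4 protein almost no gene passed the test, so the absence of tested members among those that passed says little about them. Of the 5 tested genes, 0 passed in the comparison of BMP4 with -GFs, where 0.00842% of all genes did (1 gene, ID1). The fitted differences of the 5 ran from 0.00 for FST (95% interval -0.53 to 0.54) to 0.20 for ACVR1. At an unadjusted p under 0.05, limma gave 92 genes with a higher and 123 with a lower level among all 11872, and none of them was a member. The methods' t-test gave 432 genes at that unadjusted p, of which 1 was a member (ACVR1), and 0 members after adjustment. With the replicate block, 0.219% of all genes passed and no member did.

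The replicate number separated several members more than the growth factors did. In the blocked fit, which estimates the replicate effect beside the group effects, the BMP4 gene was lower in replicate 2 than in replicate 1 by a log2 difference of -0.78 (adjusted p = 9.56e-05), with -0.87 in -GFs medium, -0.66 with FGF2 and -0.82 with BMP4. BMPR1A was lower by -0.71 (adjusted p = 0.000374), with -0.80, -0.46 and -0.87 in the same groups. ACVRL1 was higher in replicate 2 by 0.41 (adjusted p = 0.0199) and FST by 0.37 (adjusted p = 0.0289), while ACVR1 differed by 0.09 (adjusted p = 0.627). This comparison was added after the values had been seen. Each number stands for a single culture whose 3 wells are not independent, so these p-values measure the spread between wells only. Over all genes, 28.8% passed in this comparison, 12.8% higher and 16% lower in replicate 2, so that 4 of 5 members stands against a large background.

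**Figure D4:**
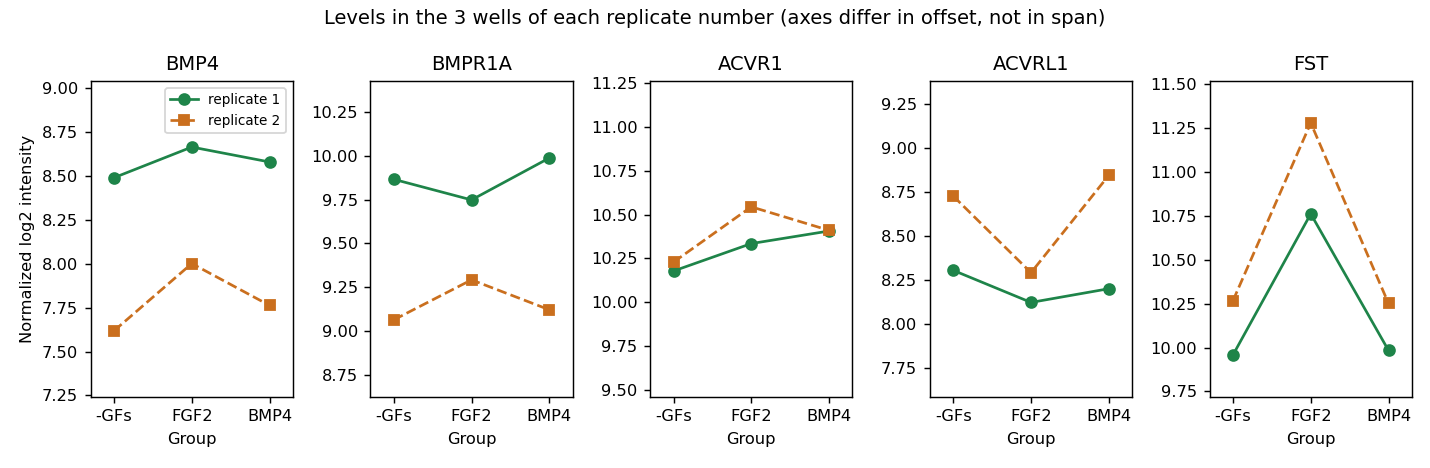
Normalized log2 intensity of the 5 tested genes in the 3 groups, with a line for the 3 wells of each replicate number (1 array per point, all panels spanning the same log2 range). The BMP4 gene and BMPR1A run about 0.5 to 0.9 lower in replicate 2 in every group, and FST peaks with FGF2 in both replicates.

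The replicate difference depended on the probe for BMPR1A and on the normalization for FST, and its size moved most for the BMP4 gene. The other BMPR1A probe, detected on all 6 arrays (209.3 to 266.4), differed by only -0.15 (adjusted p = 0.395), so the BMPR1A probes disagree. After neqc the BMP4 gene differed by -1.48 (adjusted p = 0.0103) and BMPR1A by -0.87 (adjusted p = 0.0236), ACVRL1 differed by 0.66 (adjusted p = 0.0573), and FST (0.40) no longer passed (adjusted p = 0.107). With median scaling FST differed by 0.29 (adjusted p = 0.116) and ACVRL1 by 0.31 (adjusted p = 0.0999). Marker genes of adipocytes and of stromal cells also differed between the replicate numbers. The summed normalized level (linear scale) of ADIPOQ, PLIN1, CFD, LEP and CIDEC was 781, 868 and 805 on the replicate 1 arrays of -GFs, FGF2 and BMP4, against 4029, 2869 and 3687 on the replicate 2 arrays. ADIPOQ was detected on 0 of 3 replicate 1 arrays and on 3 of 3 replicate 2 arrays, and it made up most of the sum there. CFD was higher in replicate 2 by 1.74 (adjusted p = 3.89e-07), whereas LEP differed by 0.15 (adjusted p = 0.442). Of the 10 stromal markers, 4 passed in the same comparison, in which 28.8% of all genes passed. LUM (1.32), COL3A1 (0.87) and COL1A2 (0.46) were higher and CXCL12 (-0.47) was lower in replicate 2. All 3 replicate 1 arrays also had more detected probes than the replicate 2 array of their group. The part of these differences in the result was not tested.

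The 250 bases upstream of the annotated starts of the BMP4 gene and BMPR1A are given as a description (RefSeq, GRCm38.p6, read 5′ to 3′ on the gene's strand). A link between these sequences and the replicate difference was not tested. Of the 10 members, windows were obtained for 5 (BMP4, BMPR1A, BMPR2, ACVR1 and GREM1). BAMBI was left out and not looked up, and the others had no window in the sequence table used. The letters searched on both strands were GGCGCC (a SMAD1/5 binding element), GGGCGG (the GC box bound by SP1) and GTCTAGAC (the palindromic SMAD element), and matches on either strand are in capitals, with no overlap between them in the windows shown. The window of the BMP4 gene lies at chr14:46390670-46390919 and that of BMPR1A at chr14:34502547-34502796, both on the minus strand. The BMPR1A window precedes an annotated transcript start inside the gene, whose span ends at 34503336.
BMP4: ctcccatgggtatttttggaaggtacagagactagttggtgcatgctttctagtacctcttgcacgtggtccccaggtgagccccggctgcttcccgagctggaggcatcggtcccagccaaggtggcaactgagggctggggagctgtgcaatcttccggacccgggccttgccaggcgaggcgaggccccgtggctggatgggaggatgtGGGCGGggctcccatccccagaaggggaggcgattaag
BMPR1A: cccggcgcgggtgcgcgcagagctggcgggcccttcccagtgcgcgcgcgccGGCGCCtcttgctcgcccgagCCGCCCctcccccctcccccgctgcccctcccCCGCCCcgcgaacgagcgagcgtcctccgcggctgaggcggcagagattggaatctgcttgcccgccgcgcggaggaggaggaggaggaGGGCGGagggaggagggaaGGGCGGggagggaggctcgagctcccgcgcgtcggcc
The BMP4 window had a GC content of 63.2%, with 1 GGGCGG and 0 GGCGCC, and the BMPR1A window 78.8%, with 4 GGGCGG and 1 GGCGCC. Neither held GTCTAGAC. Among 32817 windows of the same length, 32.7% held GGGCGG, 9.59% GGCGCC and 0.168% GTCTAGAC. These matches describe the letters and not the binding of a factor.

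Of 53 further genes of the pathway, 51 were on the array and 18 were tested. With FGF2, 1 rose and 2 fell relative to -GFs, next to 6.03% and 5.78% of all genes, and none exceeded the fold limit. INHBA, which encodes a subunit of activin, the ligand that follistatin sequesters, gave log2 levels of 8.30 and 8.02 in -GFs medium, 9.08 and 8.96 with FGF2, and 8.67 and 8.05 with BMP4. It rose by 0.86 with FGF2 (SE 0.23, adjusted p = 0.0822), while its difference of 0.66 between FGF2 and BMP4 did not pass (adjusted p = 0.169, and 0.00335 with the replicate block). BMPER, a secreted BMP-binding modulator, gave 11.56 and 11.98 in -GFs medium, 11.07 and 10.78 with FGF2, and 11.73 and 11.76 with BMP4. Its change was -0.85 (SE 0.19, adjusted p = 0.0537) against -GFs and -0.82 (adjusted p = 0.0661) against BMP4. GDF9, a ligand best known from oocytes, changed by -0.78 (SE 0.19, adjusted p = 0.0606) against -GFs and by -0.74 (adjusted p = 0.0783) against BMP4. In all 3 genes the FGF2 arrays lay outside the range of the other 4 arrays.

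Each of these results was lost without single arrays. INHBA and GDF9 missed the limit without any one of the -GFs and FGF2 arrays, and BMPER without -GFs replicate 2 or either FGF2 array. INHBA also missed it with median scaling (adjusted p = 0.144) and with neqc, which gave a larger difference of 1.33 (adjusted p = 0.111), and GDF9 exceeded the fold limit with neqc (-1.41, adjusted p = 0.0777). By role, the tested genes comprised 3 ligands with a median log2 fold change of -0.46 upon FGF2, 6 receptors and coreceptors with -0.27, and 9 antagonists and modulators with -0.12, next to -0.02 over all genes. The median of the 3 ligands is the value of INHA alone, between 0.86 for INHBA and -0.78 for GDF9, and describes no common direction. With the replicate block, 2 rose and 7 fell with FGF2, in a fit in which 37.7% of all genes passed. The genes added were the coreceptor TGFBR3 (0.39) among those that rose and ACVR2B (-0.67), RGMA (-0.68), ENG (-0.40), CHRD (-0.48) and INHA (-0.46) among those that fell. ENG was detected on 5 of the 6 arrays and INHA on only 3. The log2 levels of INHA were 7.61 and 7.74 in -GFs medium and 7.34 and 7.09 with FGF2, close to the detection limit. INHA passed the filter only through the -GFs group, where its level was higher, and was not detected with FGF2. Its level with FGF2 is therefore only a bound, and its fall is not read as a result. With BMP4, 0 of the 18 passed without the block, next to 0.00842% of all genes, and 0 with it, next to 0.219%. Their differences from -GFs ranged from -0.25 to 0.20.

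**Figure D5:**
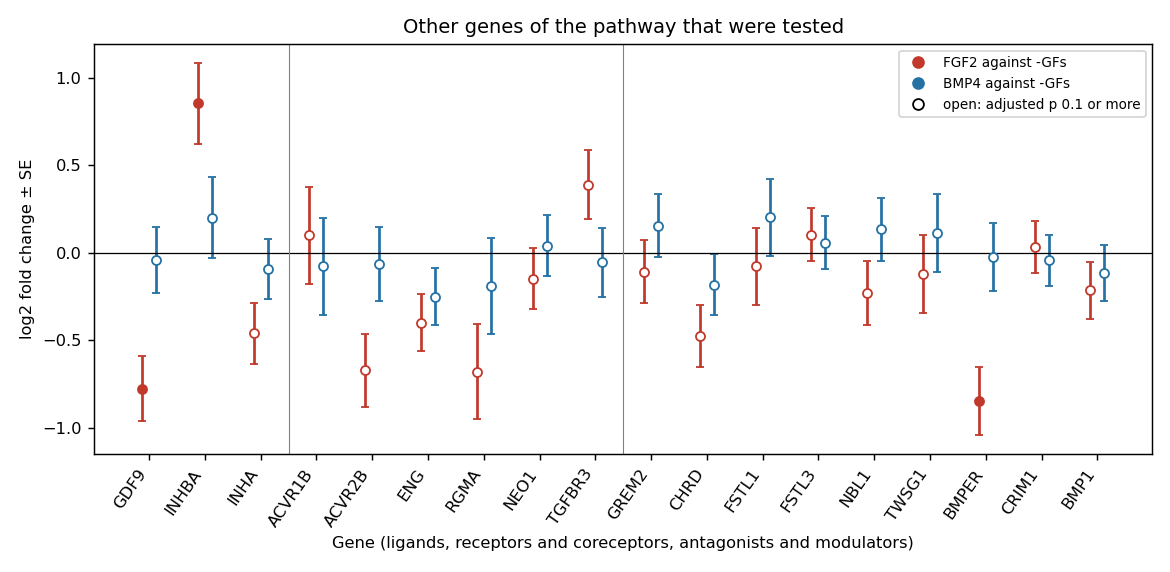
Log2 fold changes (± SE) of the 18 other tested pathway genes for FGF2 against -GFs and BMP4 against -GFs, ordered as ligands, receptors and coreceptors, and antagonists and modulators (vertical lines). Filled points passed an adjusted p of 0.1, which INHBA (0.86), GDF9 (-0.78) and BMPER (-0.85) did with FGF2 and no gene did with BMP4.

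BMP target genes were examined as a check of the treatment. Of 13 target genes, 8 were tested. ID1, an inhibitor of differentiation factors and a direct SMAD target, had log2 levels of 9.73 and 9.74 in -GFs medium, 10.27 and 9.94 with FGF2, and 12.49 and 12.54 with BMP4. It rose by 2.77 with BMP4 (SE 0.16, adjusted p = 0.00941), a call that was lost when single arrays were dropped. Its adjusted p was 0.117 and 0.115 when the first or the second -GFs array was left out, and 0.111 when the first BMP4 array was. The other target genes did not pass without the block, and ID2, detected on 4 of the 6 arrays, had log2 levels of 11.53 and 9.31 on the BMP4 arrays. Their differences between BMP4 and -GFs were 2.24 for ID2 (IDB2 on the array, SE 0.64, 1.13 to 3.35 when single arrays were left out), 2.10 for ID3, 1.52 for ATOH8, 0.94 for ID4, 0.83 for HEY1, 0.50 for SMAD6 and 0.04 for MSX1. With the block, 6 of the 8 passed, all but SMAD6 and MSX1. Between FGF2 and BMP4, 5 of the 8 (ID1, ID2, ID3, ID4 and ATOH8) were lower with FGF2, as were 4.22% of all genes, and with the block SMAD6 was too (-0.47, adjusted p = 0.0264). HEY1 rose with FGF2 by 0.88 (adjusted p = 0.0394), and with the block ID1 (0.37, adjusted p = 0.0613) and ID3 (-0.38, adjusted p = 0.0740) passed as well. The median over the 8 was 1.23 for BMP4 against -GFs, next to 0.00 over all genes. For the FGF2 treatment, the ERK targets EGR1 and DUSP6, which were detected on all 6 arrays, rose by 4.19 (adjusted p = 0.00459) and 3.55 (adjusted p = 0.00305) relative to -GFs.

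Genes with the most similar profile over the 6 arrays were sought by Pearson correlation among the 11872 genes tested, as a description of arrays that share replicate and group. FST was nearest to LCN2, a secreted lipocalin (r = 0.999), whose log2 level was 10.37 and 11.16 in -GFs medium, 12.11 and 13.31 with FGF2, and 10.41 and 10.99 with BMP4. Like FST, LCN2 was higher on both FGF2 arrays and in replicate 2 of each group. The BMP4 gene was nearest to SNX13 (r = 0.999), BMPR1A to 2610020C11RIK (r = 0.998), ACVRL1 to PIP5K1C (r = 0.996) and ACVR1 to 1700012O15RIK (r = 0.983). With 6 arrays such values were common, since 266 genes exceeded a correlation of 0.95 with FST, 310 with the BMP4 gene, 286 with BMPR1A, 142 with ACVRL1 and 6 with ACVR1.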

How the data were processed

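RNA of PA6 cells was hybridized to 6 MouseWG-6 v2.0 BeadChip arrays. The authors deposited array intensities, the linear mean bead brightness of the probes before normalization, together with their detection p-values, and the labels and methods name BeadStudio and GenomeStudio 2011.01 for their processing. Another 9 columns of values without a heading and 6 leftover lines were not used. Groups and replicate numbers came from the labels, which give 10 ng/ml of BMP4, while the methods on the co-cultures give another dose.

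Cubic spline normalization was re-implemented in R 4.3.3 (452 quantiles per array, mean of the 6 arrays as target) and values were converted to log2. Filtering kept the 16111 probes that some group detected (p under 0.05) in both replicates. Where several probes of a gene remained (3140 genes), the most intense on average was used. limma 3.58.1 was fitted on 6 arrays and 3 groups without a block (3 residual degrees of freedom), with Benjamini-Hochberg adjustment over all 11872 genes. A gene is said to rise or fall at an adjusted p under 0.1, and is called where the absolute log2 fold change is also over 1. Undetected probes have only a bound, and the number of arrays limits the precision. No exact permutation test was used, because with 2 arrays per group its smallest p is 0.333.

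By the labels, arrays with the same replicate number form pairs, and deviations from the group means correlated between same-numbered arrays (r across genes 0.602, 0.741 and 0.579). The block fit is given for the tested members with FGF2 against -GFs, and elsewhere for the genes and counts where it is named. Named genes are all members, pathway genes that passed, tested BMP targets and the gene nearest to each member. Members and lists were chosen with earlier results of these data known. The comparison of replicate numbers was added later. The procedure was tested on simulated data with independent noise per array, no replicate effect and planted changes larger than those of the members. That test therefore does not cover changes of the members' size or the replicate differences seen here. Alternatives were quantile normalization, neqc (offset 16), median scaling, other detection filters, every probe, no fold limit, the replicate block and leaving out each array. A further alternative was the unpaired t-test of the paper's general statistics section, which names limma for the arrays elsewhere. RefSeq annotation (GRCm38.p6) gave names and sequences.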

Additional observations from a re-analysis of the deposited data

How the results depend on the processing

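Fold changes were followed for the members, the pathway genes that passed and the tested BMP target genes, and not for all called genes. Those that passed as reported kept their sign under every setting. Some that did not pass changed sign, such as the BMP4 gene with FGF2 against -GFs (0.28, and -0.16 without -GFs replicate 2). For FGF2 against -GFs, 271 genes were called up and 148 down. There neqc gave 432 and 362, no fold limit 716 and 686, and neqc with the replicate block 623 and 520. The block without a fold limit gave 2152 and 2326. The unpaired t-test gave 0 and 0 after adjustment (1780 genes at an unadjusted p under 0.05). Leaving out single arrays gave 70 to 277 up and 33 to 174 down. For BMP4 against -GFs, 1 gene was called up and 0 down, against 9 and 1 with the replicate block, 2 up without detection filter, 0 by the t-test, 20 and 6 with the block without a fold limit, and 0 to 2 up without single arrays. For FGF2 against BMP4, 241 were called up and 124 down, against 364 and 276 with neqc, 575 and 501 without a fold limit, 0 and 0 by the t-test, 569 and 418 with neqc and the block, 1935 and 2114 with the block without a fold limit, and 68 to 256 up and 25 to 131 down without single arrays. Median scaling gave 208 up and 209 down for FGF2 against -GFs.

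Members called numbered 0, and 1 (FST) without a fold limit for FGF2 against -GFs and against BMP4, with or without the block. Members with an adjusted p under 0.1 numbered 1 for FGF2 against -GFs, 0 with neqc or the t-test, 2 with neqc and the block (FST and the BMP4 gene, 0.59, adjusted p = 0.0872), and 0 to 1 without single arrays. For FGF2 against BMP4 the 1 member became 0 with neqc or the t-test and 0 to 1 without single arrays. The cause was not tested. Of the members' fold changes under the alternatives, 224 stayed on their side of the adjusted p limit, 12 (all FST) no longer passed it and 1 newly did. The replicate block alone moved no member across that limit. A block for the chip was not run, since the array names give no chip.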
